A study of Mus musculus with 4 samples.

Results

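The genes that encode DNA-binding partners of HOX proteins were examined for HOXA5 occupancy in the embryonic mouse lung. They are 8 genes of the Pbx, Meis and Pknox families: Pbx2, Pbx3, Pbx4, Meis1, Meis2, Meis3, Pknox1 and Pknox2. The set was defined by gene family, out of 21775 protein-coding genes of the RefSeq table used, and does not hold every gene of these families. HOXA5 was mapped by chromatin immunoprecipitation and sequencing (ChIP-seq) with an antibody against FLAG, in lungs of E15.5 embryos. Every library of the series has the genotype label Hoxa5FLAG/FLAG, an allele in which the endogenous Hoxa5 gene carries the FLAG epitope. There are 2 immunoprecipitates and 2 inputs, and the account rests on 1 peak list for each immunoprecipitate. The input libraries were not analysed here.

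A peak is a stretch of the genome that the authors' peak caller scored as enriched, and its summit is the base of highest signal. A peak was assigned to a gene when its summit lay inside the gene's annotated span, or within 100 kb of it with that gene as the nearest protein-coding gene. Under this rule 8 of the 4289 replicate 1 peaks and 4 of the 2832 replicate 2 peaks belonged to the 8 genes. The titles of the libraries carry the abbreviation wt beside the tagged genotype, and peak names in the second list carry another replicate number than the title. The titles' replicate numbers were followed. No untagged lung was analysed here, and nothing in the labels tells if the replicates are separate litters or pools. The peak lists hold no read counts, so the depth behind each peak is unknown. The tissue label could not be checked against marker genes, since the lists hold no expression values. All positions are in mm10.

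PBX, MEIS and PKNOX proteins are homeodomain proteins of the TALE class, named for an extended loop inside the homeodomain. PBX proteins bind DNA next to HOX proteins through a short peptide motif of the HOX partner, and this raises the selectivity of HOX proteins for their sites. MEIS and PKNOX proteins pair with PBX, help to keep it in the nucleus, and can join the complex of HOX and PBX on DNA.

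Of the 8 genes, 3 had an assigned peak in at least 1 list: Pbx3, Meis1 and Meis2. Across all protein-coding genes the share was 11.7%. The 3 genes each had a replicate 1 peak, as did 10.4% of all protein-coding genes, and Pbx3 and Meis1 had a replicate 2 peak, as did 7.57%. Pbx3 and Meis1 had a shared peak, meaning peaks of both lists that overlap by at least 1 bp, and 5.97% of all protein-coding genes had one. The 12 peaks fell at 8 places, of which 4 were found in both replicates, 4 in replicate 1 alone and 0 in replicate 2 alone. Among the genes examined, Pbx3 had peaks while Pbx2 and Pbx4 had none, Meis1 and Meis2 had peaks while Meis3 had none, and neither Pknox gene had any. The difference between members was not tested.

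The 8 genes differed in length. The annotated spans of Meis1, Pbx3, Meis2 and Pknox2 measured 139, 201, 206 and 256 kb, and those of Pbx2, Meis3, Pbx4 and Pknox1 measured 5.14, 12.5, 39.8 and 43.0 kb. Of the 4 genes longer than 100 kb, 3 had a peak and 2 a shared peak. Among all 2426 protein-coding genes of at least 100 kb, 42.3% had a peak in either list and 23.3% a shared peak, so the long members are set against this larger share. The part of length and of neighbouring genes in the counts was not tested.

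**Figure D1:**
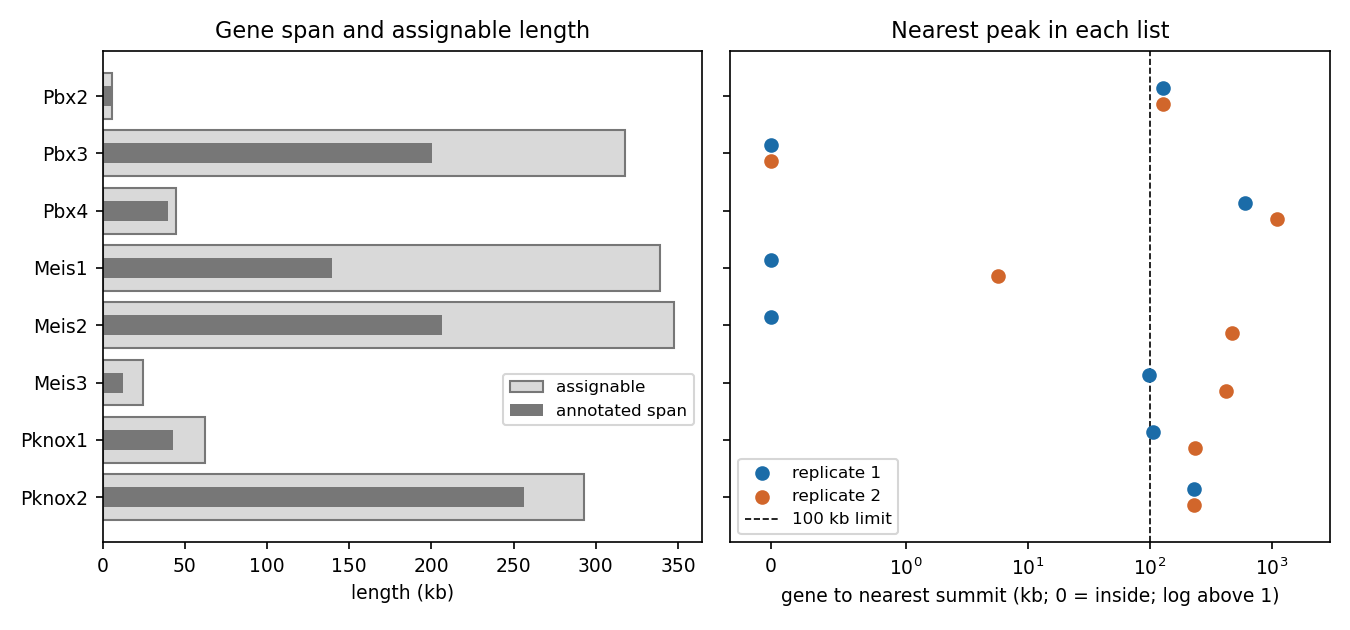
Left, annotated span of each gene (dark bars, kb) and the length over which a summit would be assigned to it (light bars, kb). Right, distance in kb from each gene to the nearest peak summit of each list (blue, replicate 1; orange, replicate 2; dashed line, 100 kb). Pbx3, Meis1 and Meis2 have the longest assignable lengths, 318 to 348 kb, and hold all the assigned peaks, while Pknox2 with 293 kb has none.

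The length over which a summit would be assigned summed to 1.43 Mb for the 8 genes. Replicate 1 had 5.58 peaks per Mb there, against 1.67 per Mb over the surroundings of all protein-coding genes. The corresponding densities were 2.79 and 1.09 per Mb in replicate 2, and 2.79 and 0.828 per Mb for shared peaks. They rest on 8, 4 and 4 peaks, and no test was made of them. Pbx3 alone, with an assignable length of 318 kb, held 4, 3 and 3 of these peaks, while 5 of the 8 genes had none. The pooled densities therefore do not describe the 8 genes one by one.

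The fold enrichment and −log10 q of a peak were computed by the authors within 1 list. They serve to rank the peaks of that list and do not measure a change from one replicate to the other. The 8 replicate 1 peaks had a median of 5.57-fold (range 3.85 to 14.9), beside a median of 3.87-fold over the whole list, and 7 of the 8 lay above that list median. The 4 replicate 2 peaks had a median of 3.90-fold (range 2.85 to 13.1), beside 3.36-fold for the list, and 3 of the 4 lay above it. The peaks were short, between 296 and 607 bp, with medians of 377 bp in replicate 1 and 304.5 bp in replicate 2 (list medians 414 and 436.5 bp).

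**Figure D2:**
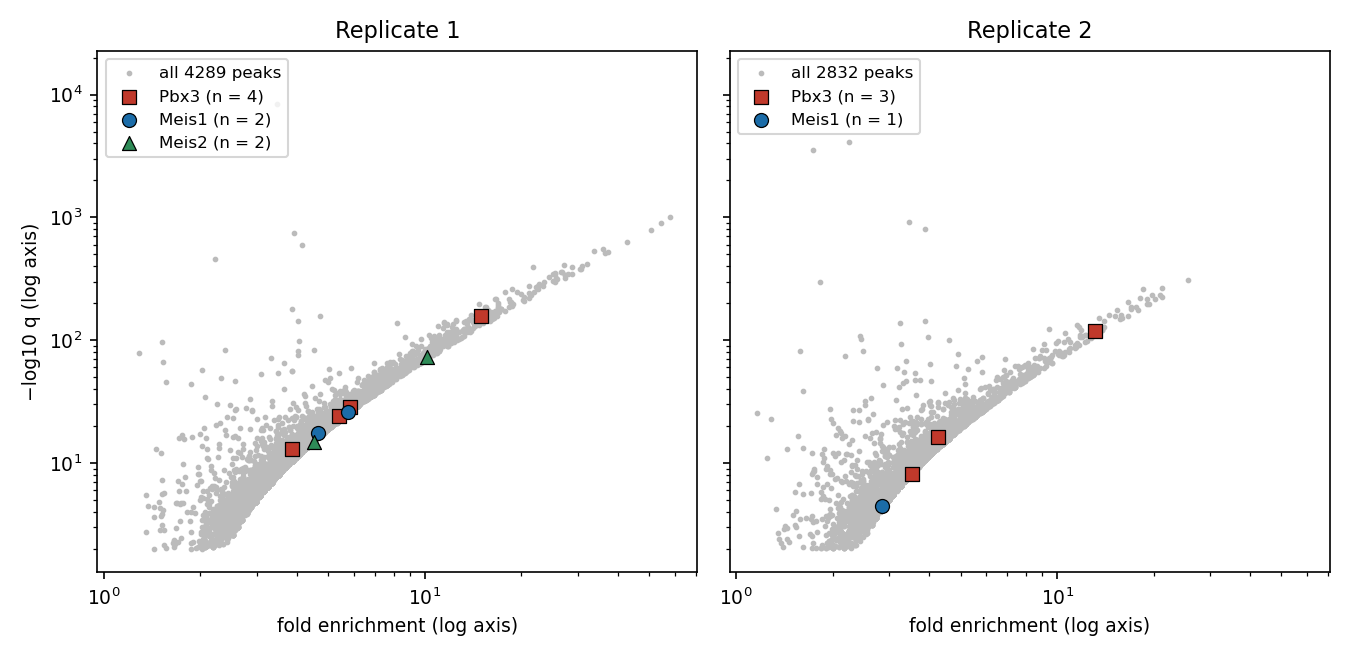
Fold enrichment (log axis) against −log10 q (log axis) for each peak of the replicate 1 list (left) and the replicate 2 list (right). Grey points are all peaks, and the larger symbols are those assigned to Pbx3, Meis1 and Meis2. The member peaks run along the main band of each list, from 3.85- to 14.9-fold in replicate 1 and from 2.85- to 13.1-fold in replicate 2.

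Pbx3, on chromosome 2 from 34171457 to 34372045, held the most peaks of the 8 genes, with 4 in replicate 1 and 3 in replicate 2. It encodes a PBX protein that binds DNA with HOX and MEIS partners. All 3 replicate 2 peaks overlapped a replicate 1 peak, so the gene had 3 shared peaks. Of all protein-coding genes, 0.225% had at least 3 shared peaks, and of those spanning at least 100 kb, 1.65% did. For replicate 1 alone, 0.381% of protein-coding genes had at least 4 peaks. That share was not computed for genes of at least 100 kb, the class to which Pbx3 belongs. The cut-offs of 3 and 4 are Pbx3's own counts, and Pbx3 had the most peaks of the 8 genes. These shares are therefore a description and not a test.

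The highest Pbx3 peak lay outside the gene, 80.7 kb beyond its lower-coordinate end. It covered 34090569 to 34090972 in replicate 1 with 14.9-fold enrichment and a −log10 q of 157, and 34090551 to 34090996 in replicate 2 with 13.1-fold and a −log10 q of 119. It ranked 89 of 4289 by fold in replicate 1 and 32 of 2832 in replicate 2, which is within the top 2.08% and 1.13% of the lists. The summits were 11 bp apart, and the replicate 1 peak lay wholly within the replicate 2 peak. This summit fell inside C230014O12Rik, a long noncoding RNA gene. The next protein-coding gene, Mvb12b, was 203 kb away, so Pbx3 was the nearest coding gene but not the gene that holds the site.

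The second Pbx3 peak lay inside the gene, 86.3 kb from its lower-coordinate end. Replicate 1 placed it at 34257489 to 34258057 with 5.86-fold enrichment (−log10 q 28.5), and replicate 2 at 34257676 to 34257971 with 4.27-fold (−log10 q 16.4). Its summits were 51 bp apart, the widest gap among the 4 shared peaks of these genes. The third, also inside the gene, was 3.42 kb from the higher-coordinate end, at 34368484 to 34368797 in replicate 1 (5.39-fold, −log10 q 24.3) and 34368420 to 34368717 in replicate 2 (3.53-fold, −log10 q 8.22). By fold the inner peaks were within the top 18.8% and 23.6% of the replicate 1 list. In replicate 2 they stood at 25.4% and 44.2%.

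The remaining Pbx3 peak was listed in replicate 1 alone, 646 bp beyond the higher-coordinate end of the gene. It lay at 34372458 to 34372759 and had 3.85-fold enrichment and a −log10 q of 12.9, the lowest values among the members in that list. It ranked 2173 of 4289 by fold, close to the list median. The nearest replicate 2 summit was that of the third peak, 4.09 kb away. On the other side, the coding gene Mapkap1 began 34.1 kb from the summit. The table used gives no strand for Pbx3 and no exons for any gene, so the end of the gene at which these peaks lie is not named here, and exons and introns were not told apart.

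**Figure D3:**
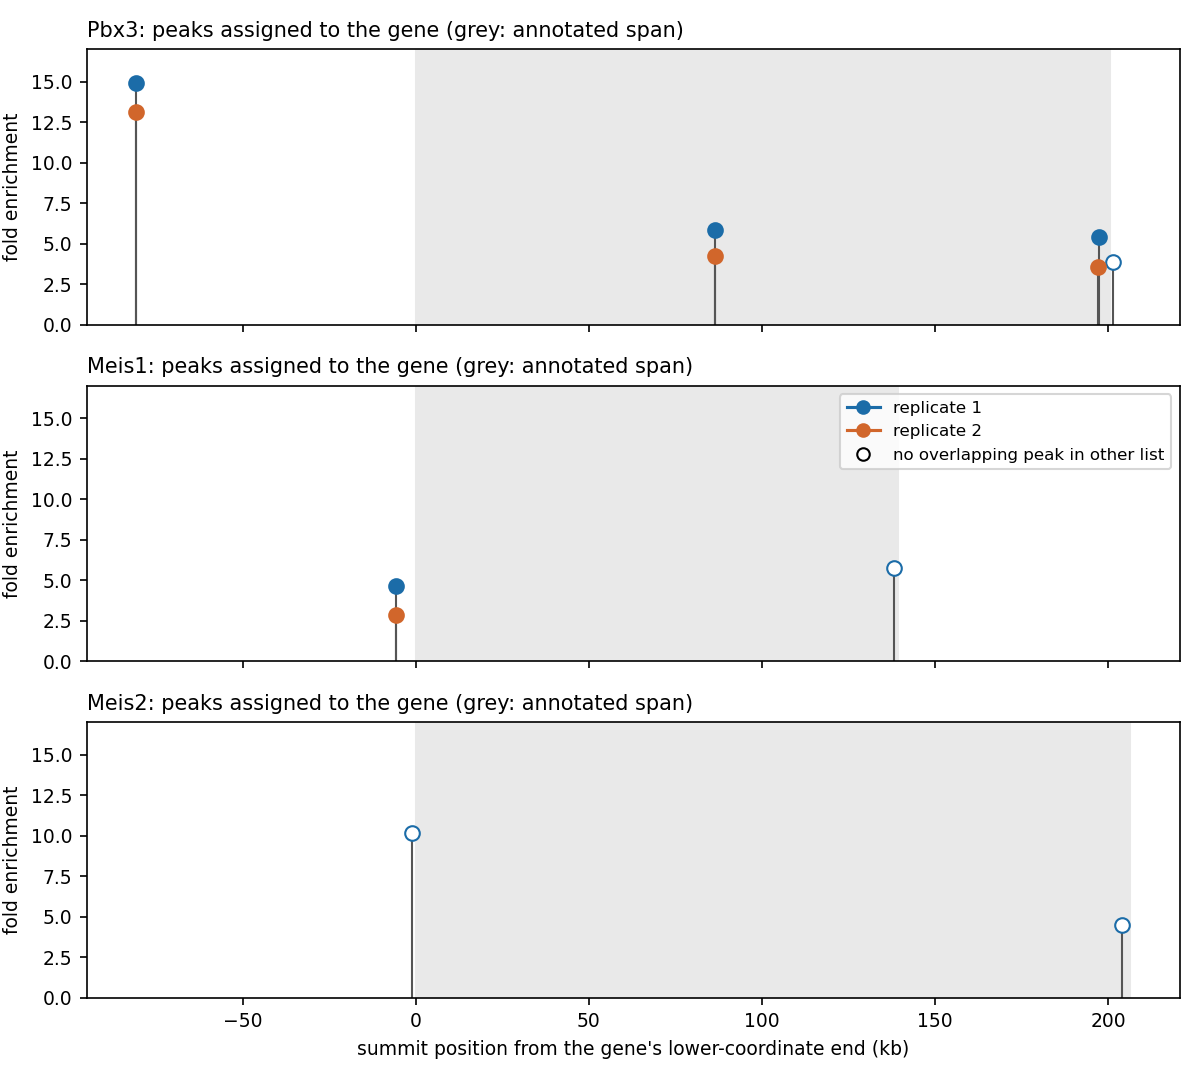
Fold enrichment of each assigned peak against the position of its summit, in kb from the lower-coordinate end of Pbx3, Meis1 and Meis2 (grey, annotated span; blue, replicate 1; orange, replicate 2; open circles, no overlapping peak in the other list). Pbx3 has 3 shared places and 1 of replicate 1 alone, Meis1 has 1 of each kind, and both Meis2 peaks are of replicate 1 alone.

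Meis1, on chromosome 11 from 18880428 to 19019651, encodes a MEIS protein that forms dimers with PBX. It had 2 peaks in replicate 1 and 1 in replicate 2. The shared peak lay 5.73 kb beyond the lower-coordinate end, which is the downstream end because the promoter table places Meis1 on the minus strand. It had 4.63-fold enrichment and a −log10 q of 17.7 in replicate 1 (18874468 to 18874829), and 2.85-fold and 4.49 in replicate 2 (18874681 to 18874991). The replicate 2 peak was the weakest of the members' peaks, ranking 1999 of 2832 by fold. The summits were 10 bp apart, the narrowest gap among the 4 shared peaks, yet the peaks overlapped by only 149 bp, or 41.2% of the replicate 1 peak and 47.9% of the replicate 2 peak. The site is therefore no longer shared when a −log10 q of at least 5 is required in each list, or an overlap of at least 50% of both peaks. Its summit fell inside the long noncoding RNA gene 8430419K02Rik, and the next coding gene, Etaa1, was 921 kb away.

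The other Meis1 peak, of replicate 1 alone, lay at the upstream end of the gene. It covered 19018481 to 19018830 with 5.75-fold enrichment and a −log10 q of 26.0, and its summit was 339 bp downstream of the transcription start at 19018969. By fold it ranked 850 of 4289 in the list and 168 among the 2094 replicate 1 peaks that had no partner. The nearest replicate 2 summit was 144 kb away, at the downstream peak. Within Meis1 the peak with the higher fold in replicate 1 was thus the one without a partner.

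Meis2, on chromosome 2 from 115861264 to 116067537, is a paralogue of Meis1 and was listed with 2 peaks in replicate 1 and 0 in replicate 2. The stronger one lay 964 bp beyond the lower-coordinate end, downstream of this minus-strand gene, at 115860114 to 115860505. It had 10.2-fold enrichment and a −log10 q of 73.4, and ranked 242 of 4289 by fold. Of 249 replicate 1 peaks of at least 10-fold, 5 (2.01%) had no partner in replicate 2, and the Meis2 peak was 1 of these 5. The other 4 were assigned to P2ry10 (17.8-fold), Pdgfd (12.5-fold) and Cntn4 (10.2-fold) or to no coding gene within 100 kb (11.4-fold), and were named after their values were seen. The Meis2 peak lay just above the 10-fold cut, and over the whole list 2094 of 4289 replicate 1 peaks had no partner. The next coding gene, BC052040, was 81.5 kb from the summit, and the nearest replicate 2 summit was 475 kb away. No replicate 2 summit lay within 476 kb of the gene itself, so the list of replicate 2 was empty over the whole gene and its flanks.

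The second Meis2 peak was inside the gene at its upstream end, at 116065173 to 116065779, with 4.50-fold enrichment and a −log10 q of 14.9. At 607 bp it was the longest of the members' peaks, and it ranked 1561 of 4289 by fold. Its summit lay 669 bp upstream of the listed transcription start at 116064619 and 2.25 kb inside the end of the annotated span.

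In replicate 1, Meis1 and Meis2 each had 1 peak past the downstream end (by 5.73 kb and 964 bp) and 1 within 1000 bp of a listed transcription start. The summit near the start lay 339 bp downstream of it in Meis1 and 669 bp upstream of it in Meis2. Of the peaks past the downstream end, that of Meis1 was shared and that of Meis2 was not. Over all peaks on the chromosomes of the promoter table, 4.53% of replicate 1 peaks and 3.08% of replicate 2 peaks had a summit within 1000 bp of a listed start. No such count is given for the members as a group, since the table lists no start for Pbx3, which holds 7 of their 12 peaks. The shares of the lists can likewise miss peaks beside starts that the table does not give. Both Meis peaks beside a start were of replicate 1 alone, and with 2 peaks no test of the arrangement was made.

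Sequence was at hand for the promoters of 5 of the 8 genes (Pbx2, Pbx4, Meis1, Meis2 and Meis3), as windows of 300 bases from RefSeq on the GRCm38.p6 build, running from 250 bases before the transcription start to 50 after it. The sequence of the peaks themselves was not used here. Neither Meis1 nor Meis2 had a peak that overlapped its window, and Pbx3 could not be scored for want of one. Of the peaks on the chromosomes of the promoter table, 2.72% in replicate 1 and 1.82% in replicate 2 overlapped a listed window of some gene. Genes without a listed window could not count. The Meis1 peak ended 90 bp from its window and the Meis2 peak began 304 bp from its window. The 50 bases of each window after the start are not shown. The 250 bases before those 2 starts are shown because they lie near the 2 peaks, without touching them, and are written 5′ to 3′ on the minus strand.
Meis1 (chr11:19018970-19019219): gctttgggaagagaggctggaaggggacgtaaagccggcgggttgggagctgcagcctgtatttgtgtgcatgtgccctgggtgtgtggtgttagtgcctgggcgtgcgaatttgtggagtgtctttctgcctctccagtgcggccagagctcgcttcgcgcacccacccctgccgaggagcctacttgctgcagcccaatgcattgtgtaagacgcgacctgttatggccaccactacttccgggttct
Meis2 (chr2:116064620-116064869): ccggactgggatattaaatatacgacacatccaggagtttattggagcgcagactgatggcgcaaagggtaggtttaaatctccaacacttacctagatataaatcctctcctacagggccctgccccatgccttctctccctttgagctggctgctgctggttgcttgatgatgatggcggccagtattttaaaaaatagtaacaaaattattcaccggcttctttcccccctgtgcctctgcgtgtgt

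Capitals would mark matches to motifs of the factors concerned, and there are none. The motifs searched on both strands of the 300 bases were TGATNNAT for HOX with PBX, TGAT followed at once by TGACAG for PBX with MEIS or PKNOX, TGACAG for MEIS or PKNOX, and TAATTA for homeodomains. Each match to that longer motif also holds TGACAG. None of the 5 windows held any of the 4 motifs. Of the 32851 promoter windows of the table, 8.85% held TGATNNAT, 0.222% the longer motif, 19.2% TGACAG and 5.29% TAATTA. The absence of these letters from the windows says nothing about the sequence under the neighbouring peaks.

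The 5 genes without a peak differed in how far away the nearest summit was. Pbx2, a short gene on chromosome 17 (34592259 to 34597400) among closely packed neighbours, could be assigned summits over only 5.42 kb. Its nearest summits were 128 kb away in both lists, beside BC051142. Pbx4, on chromosome 8 (69832476 to 69872292), lay farthest from any peak, with the nearest summit 602 kb away in replicate 1 and 1097 kb away in replicate 2. Meis3, on chromosome 7 (16174012 to 16186510), was the single member without a peak that had a summit within 100 kb. That peak, of replicate 1 alone, had 6.93-fold enrichment and a −log10 q of 36.1, lay 99.5 kb from Meis3 and inside Ccdc9, and so was not assigned to Meis3.

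Pknox1 and Pknox2 encode partners of PBX that are related to the MEIS proteins. Pknox1, on chromosome 17 (31564722 to 31607693), had its nearest summits at 107 kb in replicate 1, inside Pde9a, and at 235 kb in replicate 2. Pknox2, on chromosome 9 (36890979 to 37147342), has the longest span of the 8 genes, yet the nearest summits were 232 kb away in both lists. Among the 4 members longer than 100 kb it was the one with no peak.

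At the limit of the assignment rule the members differed as well. The farthest assigned summit was the Pbx3 peak at 80.7 kb. Just outside, Meis1 was the nearest coding gene to 4 further places between 130 and 331 kb away, as the gene lies far from other coding genes. The nearest of them, 130 kb beyond the downstream end, was shared, with 9.39-fold enrichment and a −log10 q of 78.1 in replicate 1 (18749712 to 18750115) and 4.16-fold and 20.1 in replicate 2 (18749837 to 18750288). These values exceed those of both assigned Meis1 peaks in replicate 1 and of the single one in replicate 2, and the summit lay inside the noncoding RNA gene Gm31674. A second shared place at 298 kb on the same side had 5.27- and 3.67-fold enrichment in replicates 1 and 2. A replicate 2 peak at 283 kb (3.35-fold) and a replicate 1 peak at 331 kb on the upstream side (2.81-fold) had no partner. No other member was the nearest coding gene to a summit between 100 and 500 kb away.

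**Figure D4:**
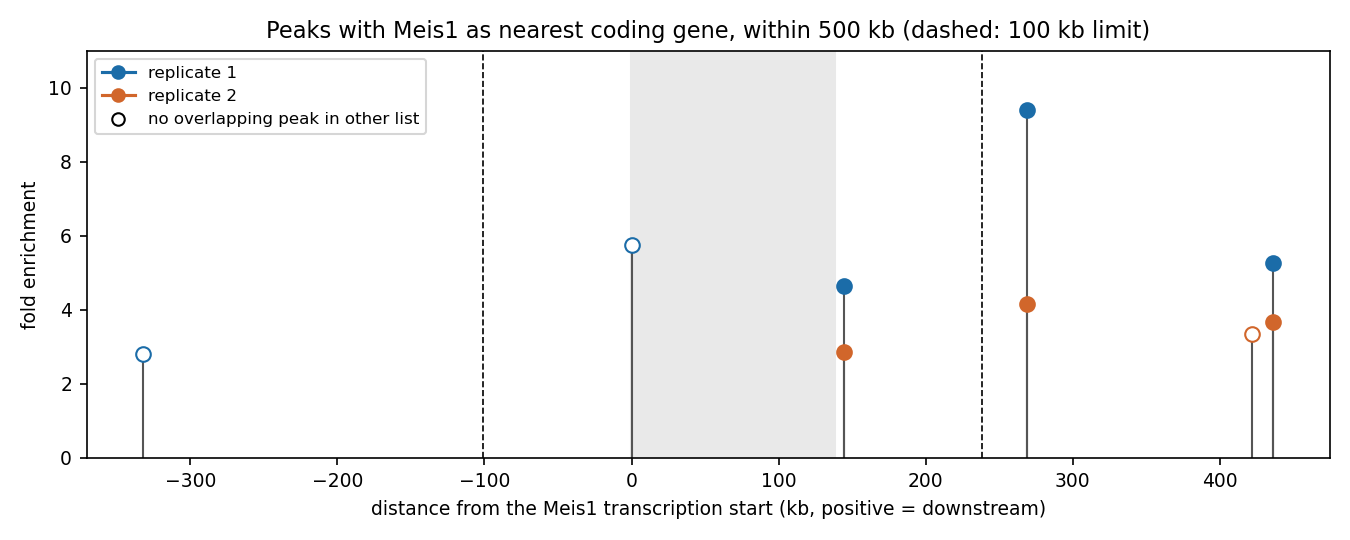
Fold enrichment of each peak that has Meis1 as its nearest coding gene, against distance in kb from the Meis1 transcription start, positive downstream (grey, Meis1 span; dashed lines, 100 kb beyond the gene; colours and open circles as in the plot of assigned peaks). The shared peak 130 kb past the downstream end is the highest in both lists, at 9.39- and 4.16-fold.

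Other TALE genes and a PBX-binding regulator were counted for comparison, namely the repressors Tgif1 and Tgif2, the tendon regulator Mkx, the Iroquois genes Irx1 to Irx6, and Pbxip1, which encodes a PBX-interacting protein. Of these 10 genes 2 had an assigned peak, Irx1 and Irx5, each with 1 shared peak, and the other 8 had none in either list. Across all protein-coding genes 11.7% had a peak in either list and 5.97% a shared peak. The Irx1 peak, 12.2 kb from the gene by its replicate 1 summit, had 3.51- and 2.98-fold enrichment in the lists of replicates 1 and 2, with summits 305 bp apart. The Irx5 peak, 45.4 kb from the gene, had 4.12- and 4.22-fold, with summits 31 bp apart. By fold the Irx1 peak lay at the top 59.9% of the replicate 1 list and 64.5% of the replicate 2 list, and the Irx5 peak at 44.0% and 26.6%. The 8 replicate 1 peaks of the Pbx and Meis genes ran from the top 2.08% to 50.7%, and their 4 replicate 2 peaks from 1.13% to 70.6%, so the ranges overlap. No gene of this second list reaches 100 kb in span. The length over which a summit would be assigned ran from 16.8 kb (Pbxip1) to 210 kb (Irx2) in it. Among the Pbx, Meis and Pknox genes it ran from 5.42 kb (Pbx2) to 348 kb (Meis2). No test was made between the lists.

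The partner shares complete the account. Of the members' 8 replicate 1 peaks, 4 (50.0%, 95% Wilson interval 21.5 to 78.5) had a partner, beside 51.2% of the whole list. All 4 replicate 2 peaks (100%, 51.0 to 100) had one, beside 77.6% of the whole list. Both intervals include the share of the list, but with so few peaks they are wide, and this is not a test. They treat peaks as independent and cover counting error only. The members' partnered peaks mark the same 4 places in both lists, 3 of them at Pbx3. The 2 intervals are therefore not separate observations.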

How the data were processed

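Peak lists of 2 HOXA5-FLAG immunoprecipitates from lung at E15.5 were used. Per the submitters' processing notes the tools included Bowtie2 2.5.2, SAMtools 1.18 and MACS3 3.0.1, with the mm10 build. How the tools were set, which control MACS3 received and which regions were filtered is not given in the sources used here. For every peak the deposited lists give a fold enrichment (a ratio), a −log10 p and a −log10 q, all computed by the authors at the summit. The deposited score, which follows −log10 q, was not used. The depth is unknown.

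Summits (column 2 plus column 10, counted from 1) were assigned with a RefSeq gene table of GRCm38.p6, which is the mm10 assembly. Genes on the assembled chromosomes starting below 3 Mb were left out except on Y, which left 49599 genes, 21775 of them protein-coding. All 8 symbols matched. Chains of overlapping peaks counted as 1 shared peak, assigned by the replicate 1 summit of highest −log10 q. Wilson intervals came from scipy 1.17.1. Assignment and overlap were tested on simulated peaks with summits inside genes. Assignment of summits outside genes was not tested in this way.

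The members, the second gene list, the motifs and the alternatives were chosen with earlier results of these data known. Every member and each of its peaks is named, with the next coding gene where a summit lies outside, and genes of the second list with a shared peak. No test between conditions was possible with 2 lists of 1 condition.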

Additional observations from a re-analysis of the deposited data

How the results depend on the processing

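The counts of members and of their peaks, the partner shares and the median folds were recomputed under stricter thresholds, a length limit and other assignment rules, and those that concern sharing also under other overlaps. Densities, lengths, background shares, promoter counts and the second gene list were not recomputed. Of 73 values, 61 stayed within 1.5 times the main count, the interval of the share or 1 SD of the members' folds, which are wide limits for so few peaks. Some of the 61 could not have moved. The longest member peak was 607 bp, so the length limit of 1000 bp removed none. The lowest −log10 q of the members' replicate 1 peaks was 12.9, so neither q threshold removed any of those. With −log10 q of at least 10 the median fold in replicate 2 went from 3.90 to 8.70, on 2 peaks, and the replicate 1 partner share from 50.0% to 25.0%. The number of genes with a shared peak, 2 in the main analysis, was 1 under reciprocal overlap of at least 50%, −log10 q of at least 5 or of at least 10, summits inside the gene only, and nearest gene of any RefSeq type; Meis1 was the gene lost. Shared peaks assigned to members numbered 4, and 2 with −log10 q of at least 10, inside the gene only, or with genes of any type. Replicate 2 peaks likewise went from 4 to 2 under those 3 settings, and replicate 1 peaks from 8 to 4 inside the gene only. Under the any-type rule the 80.7 kb Pbx3 peak and the downstream Meis1 peak fall to noncoding RNA genes, and with summits inside the gene only, fewer peaks qualify by construction. Genes with a peak numbered between 2 and 3 when either replicate was left out, Meis2 being absent without replicate 1. No paired analysis was possible because the inputs, which share replicate numbers with the immunoprecipitates, were not analysed here and no result comes from a test. The planned motif search around summits was not run, since no genome sequence was used here. A place listed in 1 replicate alone cannot be told from one that missed the threshold in the other, as the depth is unknown.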
